A study of Homo sapiens with 6 samples.

Results

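Clear cell renal cell carcinoma (ccRCC) is recurrently mutated in a small set of genes, and 9 of them other than PBRM1 and VHL were followed here in the kidney cancer cell line Caki2. The genes are BAP1, SETD2, KDM5C, KDM6A, MTOR, TSC1, TSC2, STAG2 and NF2, chosen by name as genes recurrently mutated in this tumor. All 9 were found among the 25369 genes of the files, and all 9 were above the filter on low values that left 13303 genes for testing. Caki2 is an established ccRCC line without PBRM1 protein, and the study put into it either an empty doxycycline-inducible lentiviral vector (Caki2+Vector) or the same kind of vector carrying PBRM1 (Caki2+PBRM1). Both lines were grown in 2 µg/ml doxycycline, so the inducer was present in the control as well. Poly(A) RNA was sequenced from 3 replicates of each line, named A, B and C. Both are selected stable derivatives of 1 parental line, and whether either is a single clone is not given in the sources used here. Which of the 9 genes are themselves mutated in Caki2 was not analysed here, so the values are transcript levels and say nothing on protein or on the allele transcribed.

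Several of these genes act on chromatin, as PBRM1 does in the PBAF remodeling complex. BAP1 removes ubiquitin from histone H2A, SETD2 writes trimethylation of lysine 36 of histone H3, KDM5C erases methylation of lysine 4 and KDM6A that of lysine 27, and STAG2 is a subunit of the cohesin ring that holds and folds DNA. The others act in growth signaling. MTOR is the kinase of the mTOR complexes, TSC1 and TSC2 form the complex that switches off RHEB, the activator of mTOR complex 1, and NF2 encodes merlin, which links cell contacts to the Hippo kinases. Loss of function is the usual lesion of these genes in kidney cancer, except for MTOR, where mutations are activating.

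The Caki2+Vector libraries held 7312955 to 9323770 reads on genes and the Caki2+PBRM1 libraries 8417615 to 10835355, and each of the 9 genes had between 289 and 1874 reads in every sample. PBRM1 itself had 195, 182.3 and 182.2 normalized counts against 2432, 2521 and 2682 in Caki2+PBRM1, as the labels state (log2 fold change 3.76, SE 0.056, limma adjusted p = 3.33e-29). VHL, the most often mutated gene of this tumor, did not pass the test (log2 fold change -0.13, SE 0.073, limma adjusted p = 0.177). It passed as lower after a planned correction for transcript length and GC content (-0.20, limma adjusted p = 0.0133) and not with curves resistant to outlying genes (-0.14, 0.0909). Of 12 renal epithelial and ccRCC markers 11 were above the filter, with a summed level, in CPM (a gene's share of the library's reads), of 3590 to 3680 in Caki2+Vector against 3660 to 3750 with PBRM1, while CA9 was below it at means of 1.58 and 10.3 normalized counts. The markers moved within that sum: 4 rose and 3 fell, which is 63.6% of the 11, against 29.2% of all genes tested. VIM, the marker with the highest counts, rose from a mean of 14933 to 16906 normalized counts (log2 fold change 0.18, limma adjusted p = 3.45e-05). KRT8, the next highest, fell from 8572 to 7569 (-0.18, 0.000209). The sum thus mostly reflects these genes, which moved in opposite directions. The cadherin CDH6 had a log2 fold change of 1.12 (limma adjusted p = 1.59e-18) and CDH16 one of 0.40. The keratins KRT7 and KRT18 had -0.41 and -0.34, while PAX8 did not pass (0.02, limma adjusted p = 0.815). The part of these changes in the results for the 9 genes was not tested. Of 8 leukocyte and endothelial markers only ITGAM was above the filter; the other 7 summed to 0.554 to 1.18 CPM and CD3E and CDH5 were at 0 in all 6 samples. Caki2+Vector replicate A stood apart from its group: its counts differed from those of B and C with a chi-square per degree of freedom of 3.09 and 2.84, against 1.34 between B and C and 1.19 to 1.22 between the Caki2+PBRM1 replicates.

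Between Caki2+PBRM1 and Caki2+Vector, 4 of the 9 genes passed the test. BAP1 and KDM5C rose, by 16.8% and 10.5% of the Caki2+Vector mean. NF2 and STAG2 fell, by 12.0% and 10.3% of that mean. SETD2, KDM6A, MTOR, TSC1 and TSC2 did not pass the test. In this contrast 29.2% of all genes tested passed it at a limma adjusted p under 0.05, 16.2% as higher and 13.0% as lower in Caki2+PBRM1, so 4 of 9 members, 2 in each direction, has to be read against a background in which more than 1 gene in 4 changed. The same 4 genes were the ones whose groups did not overlap, and 41.7% of all genes tested had groups that did not overlap. The median size of the change, on the log2 scale and without its sign, was 0.11 over the 9 genes and 0.14 over all genes tested. Over all 9 genes, the 95% intervals of the log2 fold change ran from -0.28 (NF2) to 0.34 (BAP1), so every one of them excluded a change of 1 log2 unit (a doubling or a halving). Counts are relative to the other transcripts of a library, and a change in RNA per cell cannot be told apart from a change in the mixture of cells.

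**Figure D1:**
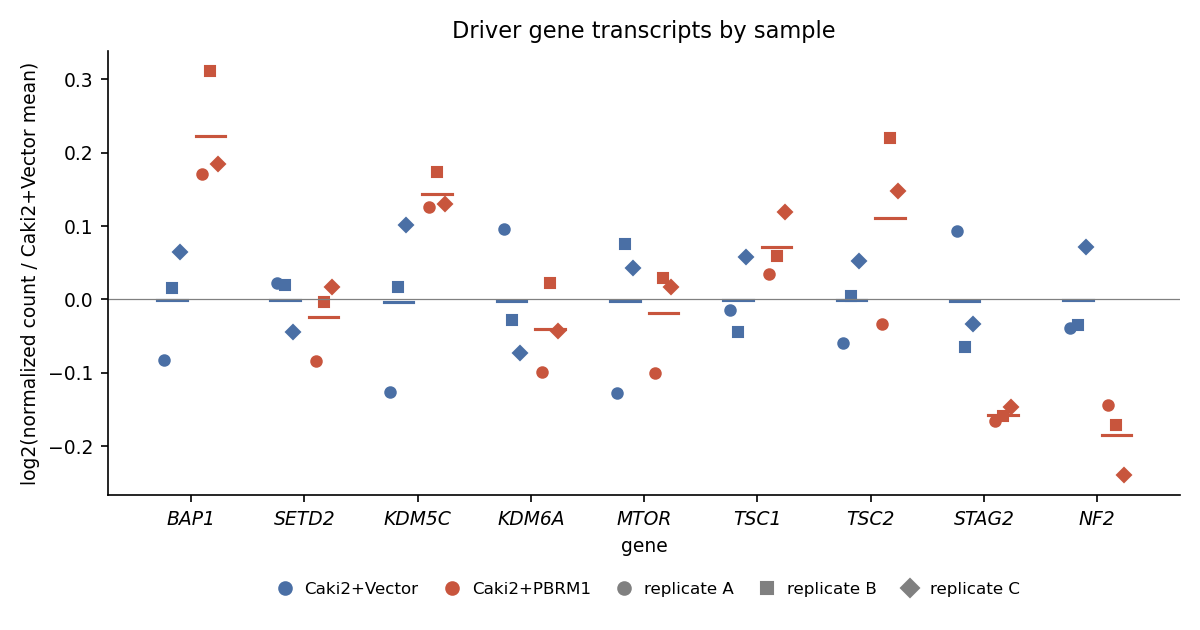
Normalized count of each of the 9 genes in each sample, as log2 of its ratio to the Caki2+Vector mean (y axis), by gene (x axis); blue, Caki2+Vector; red, Caki2+PBRM1; circle, square and diamond, replicates A, B and C; horizontal bars, group means (n = 3). The red points lie wholly above the blue ones for BAP1 and KDM5C, wholly below them for STAG2 and NF2, and overlap them for the other 5 genes.

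The 2 genes of chromosome 3p were described first, since PBRM1 lies on the same arm and a single deletion of it in ccRCC removes a copy of VHL, SETD2, BAP1 and PBRM1 together. BAP1 (hg19 chr3:52435024-52444024, minus strand) had 650.4, 696.3 and 720.3 normalized counts in Caki2+Vector replicates A, B and C, and 775.6, 855.1 and 783.1 in Caki2+PBRM1. Every Caki2+PBRM1 value was above every Caki2+Vector value. The means were 689 ± 35.6 and 804.6 ± 43.9 (SD, n = 3), the log2 fold change was 0.22 (SE 0.057, 95% interval 0.11 to 0.34), and the limma adjusted p was 0.00316. This was larger than the spread between replicates, and 68.2% of the genes tested had a smaller change than BAP1. The call was kept in 18 of 19 alternative settings and was lost only without Caki2+PBRM1 replicate B, the highest sample (0.18, limma adjusted p = 0.0508). Several of the 19 settings, such as other filters on low values, nearly repeat the main fit and are not separate checks. Without Caki2+Vector replicate A it was 0.18 (limma adjusted p = 0.00486).

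SETD2 (chr3:47057918-47205603, minus strand) had 901.2, 899.4 and 860.6 normalized counts in Caki2+Vector and 837.3, 885.3 and 897.2 in Caki2+PBRM1. The groups overlapped, and the means of 887.1 ± 23.0 and 873.3 ± 31.7 (SD, n = 3) differed by less than either group's spread. The log2 fold change was -0.02 (SE 0.051, limma adjusted p = 0.78), and its 95% interval, -0.13 to 0.08, leaves room for a small change either way. A planned correction that removed fitted curves of transcript length and GC content from each gene's change moved SETD2 to -0.13 with a limma adjusted p of 0.0148; with curves resistant to outlying genes, a setting added after seeing the data, it was -0.06 (limma adjusted p = 0.368).

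BAP1 lies between SETD2 and PBRM1, in a stretch that holds 144 genes of the files. Of the 103 tested, 10 rose and 6 fell, which is 15.5%, against 29.2% of all genes tested. Their median log2 fold change was -0.04, and they ranged from -1.08 for CELSR3, a cadherin of planar cell polarity, to 0.95 for PFKFB4, an enzyme of glycolysis. The number that passed depended on the correction for length and GC content, with 29 of the 103 (28.2%) after the planned curves, against 37.9% of all genes in that setting, and 25 (24.3%) after the resistant ones, against 35.6%.

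BAP1 works in complexes with ASXL proteins, which activate it, and with HCFC1, OGT, FOXK1, FOXK2, MBD5, MBD6 and KDM1B. Of 11 such partners 10 were tested, of which 2 rose and 1 fell (30%, against 29.2% of all genes tested, median log2 fold change 0.00). OGT, the enzyme that adds N-acetylglucosamine to nuclear proteins, fell from 1415 ± 28.9 to 1214 ± 73.8 normalized counts (log2 fold change -0.22, limma adjusted p = 0.00071). It fell in every fit with 1 sample left out. MBD6 rose with a log2 fold change of 0.22 (limma adjusted p = 0.0184) and the transcription factor FOXK1 with 0.17 (0.0164), but both lost the call in DESeq2 (adjusted p = 0.0697 and 0.0567) and after the planned length and GC curves. With 1 sample left out MBD6 kept it in 3 of 6 fits and FOXK1 in 2 of 6. The BAP1 activators ASXL1 and ASXL2 gave -0.07 (limma adjusted p = 0.28) and 0.07 (0.327) and did not pass.

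SETD2 acts in the same layer as the other enzymes that write or erase methylation of H3 lysine 36 and the proteins that read it. Of these 22 genes 4 rose and 2 fell (27.3%, against 29.2% of all genes tested, median log2 fold change -0.01). KDM4B, a demethylase of H3 lysines 9 and 36, had the largest change, from 469.6, 506.4 and 578.9 normalized counts in Caki2+Vector to 709.5, 709.3 and 705.9 in Caki2+PBRM1 (log2 fold change 0.46, SE 0.065, limma adjusted p = 2.89e-06). The groups were far apart, with the 3 Caki2+PBRM1 samples close to one another. The DNA methyltransferase DNMT3B, whose reader domain binds methylated lysine 36, fell from 1684 ± 88.9 to 1372 ± 31.0 (-0.29, limma adjusted p = 1.08e-05). The methyltransferase SMYD2 rose by 0.19 (limma adjusted p = 0.00476) and the demethylase KDM4C by 0.29 (0.0289), the latter without the call in DESeq2 (adjusted p = 0.097) and in 3 of 6 fits with a sample left out. NSD1, which writes dimethylation of the same lysine, had 0.09 (limma adjusted p = 0.102).

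The demethylases KDM5C and KDM6A lie on the X chromosome. KDM5C (chrX:53205465-53254604, minus strand) had 982.7, 1086 and 1151 normalized counts in Caki2+Vector and 1171, 1211 and 1174 in Caki2+PBRM1. The groups did not overlap, but the gap between Caki2+Vector replicate C and the lowest Caki2+PBRM1 sample was narrow beside the spread of Caki2+Vector. The means were 1073 ± 84.7 and 1185 ± 22.0 (SD, n = 3), with a log2 fold change of 0.15 (SE 0.052, 95% interval 0.04 to 0.25, limma adjusted p = 0.0346). The call held in 9 of 19 alternative settings and was lost in the other 10. Of the 6 fits with a sample left out, the one without Caki2+Vector replicate C kept it. Without Caki2+Vector replicate A, the library that stood apart and the lowest for this gene, the log2 fold change was 0.08 (limma adjusted p = 0.145). It was 0.07 (0.209) after the planned length and GC curves, and in DESeq2 the adjusted p was 0.1.

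KDM6A (chrX:44732434-44972024, plus strand) had 389.1, 357.1 and 346.4 normalized counts in Caki2+Vector and 340.1, 369.8 and 353.3 in Caki2+PBRM1. The groups overlapped. Caki2+Vector replicate A held the highest value here, whereas for KDM5C it held the lowest. The log2 fold change was -0.04 (SE 0.071, 95% interval -0.18 to 0.11, limma adjusted p = 0.734). This gene had the widest standard error of the 9.

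The list of the same 2 marks held 18 genes, the relatives of these demethylases and subunits of the COMPASS methyltransferase complexes in which KDM6A sits. Among these 18 genes 6 rose and 1 fell (38.9%, against 29.2% of all genes tested, median log2 fold change 0.06). The paralogue KDM5B rose the most, from 115.5, 125.7 and 129.4 normalized counts to 270.8, 269.3 and 252.6 (log2 fold change 1.09, SE 0.091, limma adjusted p = 1.24e-10). KDM5A, the third paralogue, had means of 856.7 and 870.1 (0.02, limma adjusted p = 0.779). KDM5B thus rose and KDM5A did not pass, while the rise of KDM5C lost its call in 10 of 19 settings. The change of KDM5B was the largest of the 3. KDM6B, the paralogue of KDM6A, rose from 67.5 ± 10.6 to 87.0 ± 4.28 normalized counts (0.37, limma adjusted p = 0.0455), a call kept in 1 of 6 fits with a sample left out and absent in DESeq2 (adjusted p = 0.174). The methyltransferase genes SETD1B (0.19, limma adjusted p = 0.0412) and KMT2C (0.18, 0.0154) rose, as did KMT2D and PAGR1. Of these 4 only KMT2D kept the call in DESeq2, and of 6 fits with a sample left out SETD1B kept it in 1, PAGR1 in 3 and KMT2C and KMT2D in 4 each. After the planned length and GC curves none of them did, with KMT2C at 0.00 and KMT2D at -0.03 on the log2 scale, and after the resistant curves only PAGR1. KDM1A, a demethylase of mono- and dimethylated lysine 4, was the gene of this list that fell (-0.14, limma adjusted p = 0.0234), with the call kept in 2 of those 6 fits.

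**Figure D2:**
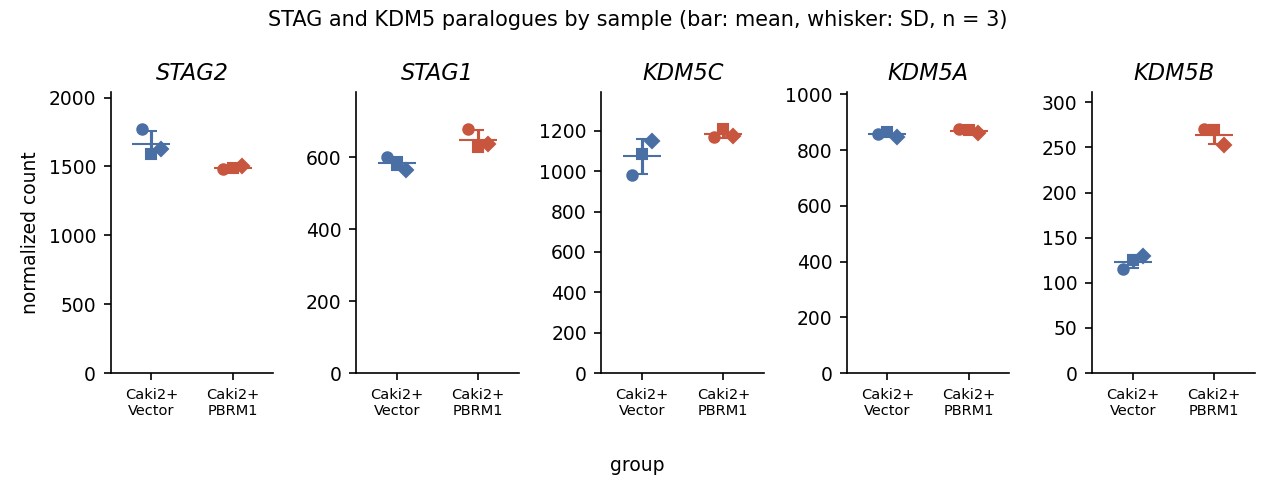
Normalized counts (y axis, from 0, scaled for each gene) of STAG2, STAG1, KDM5C, KDM5A and KDM5B by group (x axis), with 1 point per sample (circle A, square B, diamond C), the mean and the SD (n = 3). KDM5B goes from a mean of 123.5 in Caki2+Vector to 264.3 in Caki2+PBRM1, STAG2 is lower and STAG1 higher in Caki2+PBRM1 without overlap, and KDM5A shows overlapping groups.

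Per kilobase of transcript, the ratio of KDM5C to KDM5B was 13.6, 13.8 and 14.2 in Caki2+Vector and 6.92, 7.19 and 7.43 in Caki2+PBRM1. The groups did not overlap, which gives an exact permutation p of 0.1 (two-sided), the smallest that 3 against 3 samples allow. The ratio of KDM5C to KDM5A overlapped between groups, at 2.31 ± 0.20 and 2.51 ± 0.05 (exact permutation p = 0.2). The ratio of KDM6A to KDM6B was 6.11 ± 1.41 and 4.50 ± 0.07 (exact permutation p = 0.1), and its spread in Caki2+Vector came with a value of 7.69 in replicate A.

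In the mTOR pathway none of the 3 genes passed. MTOR (chr1:11166592-11322613, minus strand) had 786.7, 906 and 885.7 normalized counts in Caki2+Vector and 801.6, 877.3 and 869.5 in Caki2+PBRM1. Replicate A was the lowest in each group, and the groups overlapped over nearly their whole range. The log2 fold change was -0.02 (SE 0.057, 95% interval -0.13 to 0.10, limma adjusted p = 0.869). As for SETD2, the planned length and GC curves made it a fall, at -0.15 with a limma adjusted p of 0.00874, and the resistant curves did not (-0.08, 0.189).

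TSC1 (chr9:135766735-135822261, minus strand), the scaffold of the TSC complex, had 357.9, 350.5 and 376.4 normalized counts in Caki2+Vector and 370.5, 376.9 and 392.8 in Caki2+PBRM1. TSC2 (chr16:2097968-2139492, plus strand), which carries the GTPase-activating domain, had 629.6, 658.5 and 680.8 in Caki2+Vector and 641.2, 764.4 and 726.8 in Caki2+PBRM1. For both genes the Caki2+PBRM1 mean was the higher one, but replicate A lay within the Caki2+Vector range. The log2 fold change was 0.07 for TSC1 (95% interval -0.07 to 0.21, limma adjusted p = 0.467) and 0.11 for TSC2 (-0.01 to 0.24, limma adjusted p = 0.18). Without Caki2+PBRM1 replicate A, TSC2 reached 0.18 (limma adjusted p = 0.0435), and after the planned length and GC curves TSC1 turned to -0.05. The per kilobase ratio of TSC2 to TSC1 was 2.43 ± 0.08 and 2.51 ± 0.20 (exact permutation p = 0.7). The 3′ exons of TSC2 overlap those of PKD1 on the opposite strand by 784 bases in the annotation, PKD1 had a mean of 1164 normalized counts, and whether strand was used in counting is not stated, so reads of that stretch cannot be told apart.

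Of 11 other subunits and assembly factors of the mTOR complexes 10 were tested. Among these, 2 rose and 1 fell (30%, against 29.2% of all genes tested, median log2 fold change 0.02). TTI1, an assembly factor of MTOR and related kinases, fell from 749.1 ± 2.40 to 649.8 ± 24.3 normalized counts (-0.21, limma adjusted p = 0.00431). Its partner TELO2 rose (0.25, limma adjusted p = 0.0253), as did RPTOR, the defining subunit of mTOR complex 1 (0.22, 0.0365). In both TELO2 and RPTOR the groups overlapped, and Caki2+Vector replicate A, the library that stood apart, was the lowest sample. Of 6 fits with a sample left out TELO2 kept the call in 2 and RPTOR in 3, and neither kept it without that library. In DESeq2 TELO2 kept the call (adjusted p = 0.043) and RPTOR did not (0.0591). Both genes kept it after the planned length and GC curves (limma adjusted p = 0.0134 for TELO2 and 0.0499 for RPTOR) and after the resistant ones. RICTOR, which defines mTOR complex 2, had 0.12 (limma adjusted p = 0.148).

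Around TSC, the GTPase RHEB and the lysosomal machinery through which amino acids reach mTOR complex 1, 27 genes were tested. Among these, 4 rose and 5 fell (33.3%, against 29.2% of all genes tested, median log2 fold change -0.06). The 4 that rose did so by more than any of the 5 that fell. RRAGD, a Rag GTPase that recruits mTOR complex 1 to the lysosome, had 89.9, 93.5 and 74.3 normalized counts in Caki2+Vector and 157.1, 164.4 and 140.2 in Caki2+PBRM1 (log2 fold change 0.84, SE 0.12, limma adjusted p = 2.2e-06). RRAGA, another Rag, rose from 690.6 ± 17.5 to 942.5 ± 35.2 (0.45, limma adjusted p = 8.26e-08). SESN3, a sestrin that restrains mTOR complex 1, rose from 34.5 ± 3.34 to 54.9 ± 6.77 (0.65, limma adjusted p = 0.00545), and ULK1, the kinase that starts autophagy and a target of mTOR complex 1, from 348.5 ± 41.6 to 486.7 ± 29.0 (0.49, 1.91e-05). All 4 kept the call in every fit with a sample left out, in edgeR, in DESeq2 and after both kinds of length and GC curve. The 5 that fell, LAMTOR4, SESN2, RRAGC, LAMTOR1 and RPS6KB1, lay between -0.25 and -0.17, and none of the 5 kept the call in DESeq2 or in more than 3 of 6 fits with a sample left out. All 5 kept it in edgeR and after the planned length and GC curves. After the resistant curves LAMTOR1 lost it (limma adjusted p = 0.0546) and the others kept it. RHEB (0.10, limma adjusted p = 0.174) and TBC1D7, the third subunit of the TSC complex (0.01, 0.956), did not pass.

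STAG2 (chrX:123094062-123556514, plus strand) had 1774, 1589 and 1624 normalized counts in Caki2+Vector and 1482, 1489 and 1502 in Caki2+PBRM1. Every Caki2+PBRM1 sample was lower than every Caki2+Vector sample, and the 3 Caki2+PBRM1 values were much closer to one another. The means were 1662 ± 98.3 and 1491 ± 9.99 (SD, n = 3), and the log2 fold change was -0.16 (SE 0.046, 95% interval -0.25 to -0.06, limma adjusted p = 0.0103). The highest value was that of Caki2+Vector replicate A, without which the log2 fold change was -0.11 (limma adjusted p = 0.0306). Over the fits with a sample left out the log2 fold change ran from -0.19 to -0.11, and the call was lost only without Caki2+PBRM1 replicate A (-0.15, limma adjusted p = 0.0527).

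Cohesin rings hold either STAG2 or its paralogue STAG1. STAG1 had 600.2, 584.8 and 564.5 normalized counts in Caki2+Vector and 679.2, 627.5 and 637 in Caki2+PBRM1, and it rose with a log2 fold change of 0.15 (SE 0.057, limma adjusted p = 0.0467). This call was at the threshold: it was kept in 1 of 6 fits with a sample left out and lost in edgeR (adjusted p = 0.0533) and DESeq2 (0.169). The ratio of STAG2 to STAG1 per kilobase was 2.90, 2.67 and 2.82 in Caki2+Vector and 2.14, 2.33 and 2.31 in Caki2+PBRM1. The ratios did not overlap, with means of 2.80 ± 0.12 and 2.26 ± 0.10 and an exact permutation p of 0.1, again the smallest possible. STAG2 stayed the more abundant of the pair in every sample. Per kilobase, the sum of the pair averaged 365.2 ± 18.1 for Caki2+Vector against 348.1 ± 3.69 normalized counts for Caki2+PBRM1 (exact permutation p = 0.1). The sums did not overlap, but their means differed by less than the SD of Caki2+Vector. Replicate A of Caki2+Vector, the library that stood apart, held the highest value of its group for both genes. The sum was not tested without that library.

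The cohesin list held 14 genes other than STAG2 (ring, loader, release and acetylation factors, with CTCF, the protein at which cohesin stops). Among these, 2 rose and 2 fell (28.6%, against 29.2% of all genes tested, median log2 fold change -0.03). The ring subunit SMC3 fell from 1389 ± 40.7 to 1227 ± 54.7 normalized counts (-0.18, limma adjusted p = 0.00412), and kept the call in every fit with a sample left out. PDS5A, a regulator of cohesin release, fell by 0.15 on the log2 scale (limma adjusted p = 0.00669), with the call kept in 4 of those 6 fits. CTCF rose from 630.8 ± 22.4 to 704.9 ± 31.1 (0.16, limma adjusted p = 0.0327), without the call in DESeq2 (adjusted p = 0.123) and in 3 of the 6 fits. The ring subunits SMC1A (-0.08, limma adjusted p = 0.119) and RAD21 (-0.07, 0.19) did not pass.

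NF2 (chr22:29999545-30094587, plus strand) had 1285, 1289 and 1387 normalized counts in Caki2+Vector and 1195, 1172 and 1118 in Caki2+PBRM1. The groups did not overlap. The means were 1320 ± 57.8 and 1162 ± 39.5 (SD, n = 3), with a log2 fold change of -0.18 (SE 0.048, 95% interval -0.28 to -0.09, limma adjusted p = 0.00386). Of the 4 called genes NF2 was the one that kept its call in all 19 alternative settings, between -0.27 and -0.15. Without Caki2+Vector replicate A it was -0.20 (limma adjusted p = 0.000176). The call came nearest to the threshold without Caki2+PBRM1 replicate C (-0.16, limma adjusted p = 0.0467).

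Merlin belongs to the family of ezrin, radixin and moesin, and acts with WWC1 and FRMD6 upstream of the Hippo kinases STK3, STK4, LATS1 and LATS2, which restrain YAP1 and WWTR1. Of 21 genes of this group 4 rose and 5 fell (42.9%, against 29.2% of all genes tested, median log2 fold change 0.01). The angiomotins AMOT and AMOTL1, junction proteins that bind merlin and YAP1, rose, AMOT from 35.03, 36.8 and 41.9 normalized counts to 85.6, 96.9 and 88.1 (log2 fold change 1.23, SE 0.15, limma adjusted p = 2.2e-07), and AMOTL1 from 498.2 ± 25.0 to 833.7 ± 39.6 (0.74, limma adjusted p = 3.25e-11). FRMD6 rose from 155.3, 123.8 and 140.2 to 289.2, 315.5 and 298.8 (1.11, SE 0.092, limma adjusted p = 1.11e-10). These were the largest changes of the group, and AMOTL2, the third angiomotin, had 0.03 (limma adjusted p = 0.671).

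WWC1, which binds merlin and the LATS kinases, moved in the direction of NF2, from 1315 ± 43.7 to 1005 ± 18.5 normalized counts (-0.39, SE 0.047, limma adjusted p = 1.61e-07). The kinases LATS2 (-0.31, limma adjusted p = 0.00414) and STK3 (-0.25, 0.0234) and the adaptor SAV1 (-0.16, 0.0322) also fell, and of these 3 LATS2 kept the call in DESeq2. With a sample left out LATS2 kept it in 5 of 6 fits, STK3 in 4 and SAV1 in 2. All 3 kept it in edgeR and after both kinds of length and GC curve. TAOK1, a kinase above STK3 and STK4, rose (0.21, limma adjusted p = 0.000304), a call lost after the planned length and GC curves (adjusted p = 0.0914) and kept after the resistant ones. Radixin (RDX) fell from 1717 ± 102 to 1432 ± 32.4 normalized counts (-0.26, limma adjusted p = 7.06e-05), while ezrin (EZR, 0.07, 0.186) and moesin (MSN, -0.03, 0.612) did not pass. The effectors YAP1 (-0.08, limma adjusted p = 0.331) and WWTR1 (0.03, 0.607) did not pass either.

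**Figure D3:**
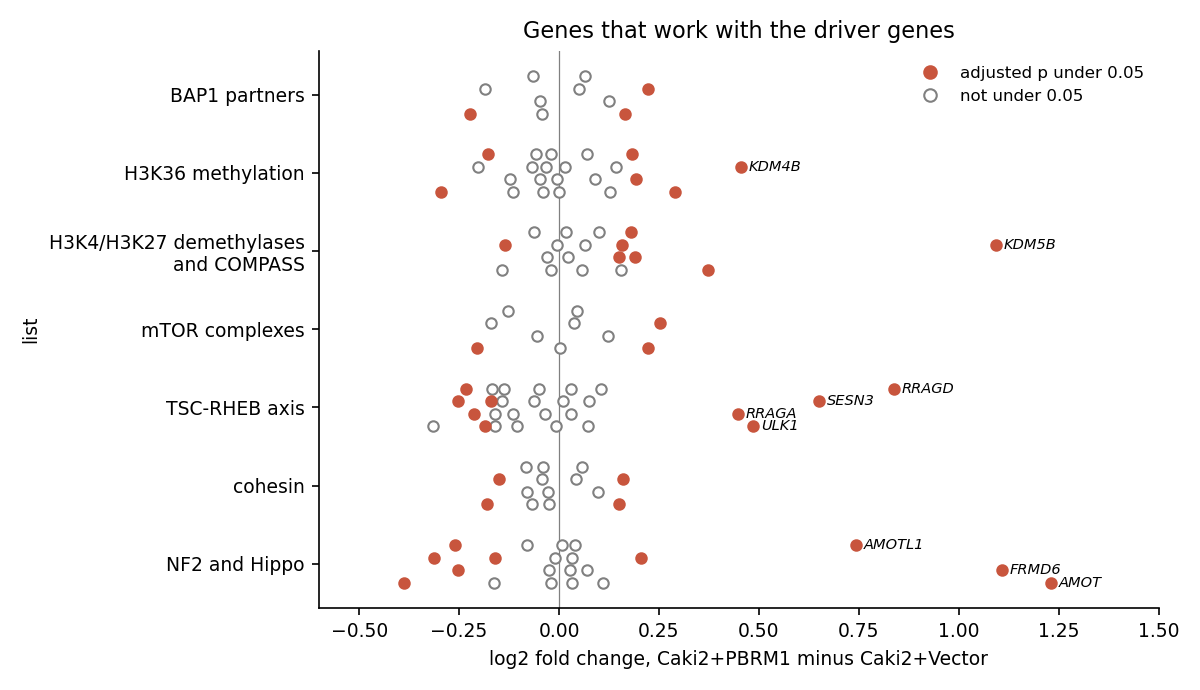
Log2 fold change, Caki2+PBRM1 minus Caki2+Vector (x axis), of the genes that work with the 9 driver genes, by list (y axis; vertical offsets within a list only separate the points), 1 point per gene; red, limma adjusted p under 0.05; open, not. Genes beyond 0.4 are named: KDM4B, KDM5B, RRAGA, RRAGD, SESN3, ULK1, AMOT, AMOTL1 and FRMD6, all higher in Caki2+PBRM1, and no gene of the 7 lists lies below -0.4.

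The alternatives are drawn together with the main values in the plot of changes with their intervals. The length and GC curves moved all 9 genes downward. The planned curves also turned the balance over all genes, from 2152 higher and 1734 lower (55.4% higher) to 1928 higher and 2633 lower (42.3% higher), whereas the resistant curves gave 2287 and 2003 (53.3% higher). The planned curves moved the median log2 fold change of all genes, from -0.0036 to -0.0365, and the resistant curves left it at -0.003; the falls of SETD2, MTOR and VHL under the planned curves include that shift. BAP1 stayed up and NF2 and STAG2 stayed down under both kinds of curve.

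**Figure D4:**
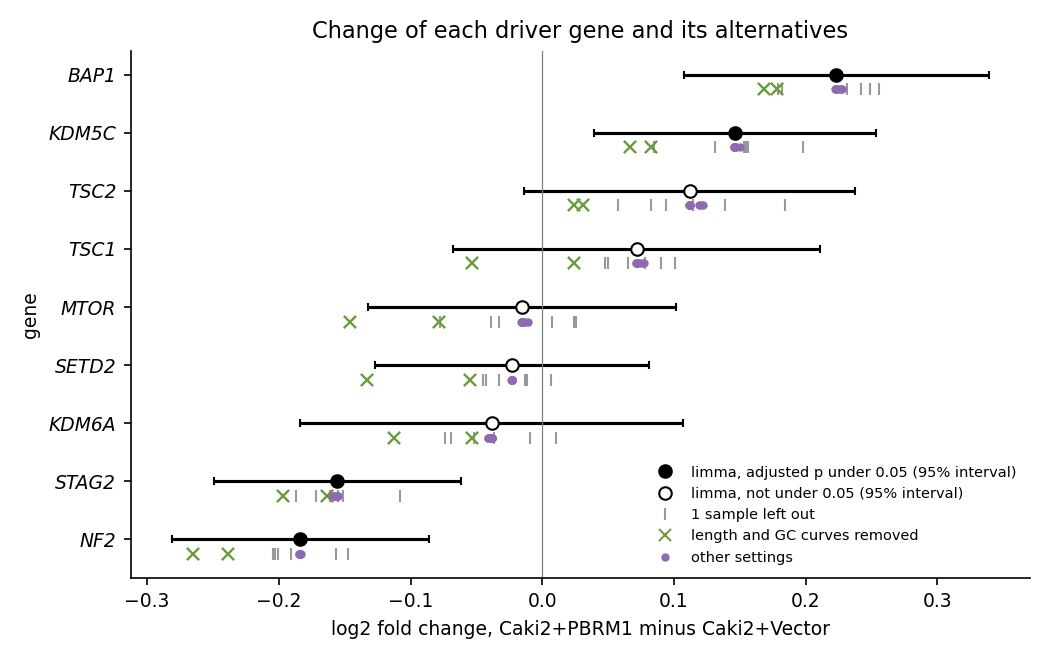
Log2 fold change, Caki2+PBRM1 minus Caki2+Vector (x axis), of each gene (y axis), with the 95% interval from limma (filled, adjusted p under 0.05; open, not), and beneath it the values with 1 sample left out (grey ticks), with length and GC curves removed (green crosses) and in the other settings (purple dots). The intervals of BAP1, KDM5C, STAG2 and NF2 exclude 0, and the green crosses lie left of the main value for every gene.

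Levels could be ordered between genes only per length. In Caki2+Vector, in normalized counts per kilobase of the canonical transcript (mean ± SD, n = 3), STAG2 was the most abundant of the 9 at 269 ± 15.9, followed by NF2 at 221.9 ± 9.72, BAP1 at 191.4 ± 9.87 and KDM5C at 184.7 ± 14.6. SETD2 (103.9 ± 2.69), TSC2 (102.3 ± 4.01) and MTOR (98.6 ± 7.32) formed a middle group, and KDM6A (59.8 ± 3.65) and TSC1 (42.1 ± 1.55) were the lowest. Neighbours whose ranges overlapped, and which therefore have no order here, were BAP1 with KDM5C and SETD2, TSC2 and MTOR with one another. In Caki2+PBRM1 NF2 moved from the second place to the fourth, behind STAG2 (241.3 ± 1.62), BAP1 (223.5 ± 12.2) and KDM5C (204 ± 3.79), at 195.2 ± 6.64 normalized counts per kilobase. The lower 5 genes kept levels between 44.2 ± 1.34 for TSC1 and 110.8 ± 9.84 for TSC2. The order depends on the length used. With the union of all annotated exons, a setting added after seeing the data, NF2 led in Caki2+Vector (178.6) and BAP1 in Caki2+PBRM1 (170.5), and KDM6A was lowest in both (13.1 and 12.8).

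**Figure D5:**
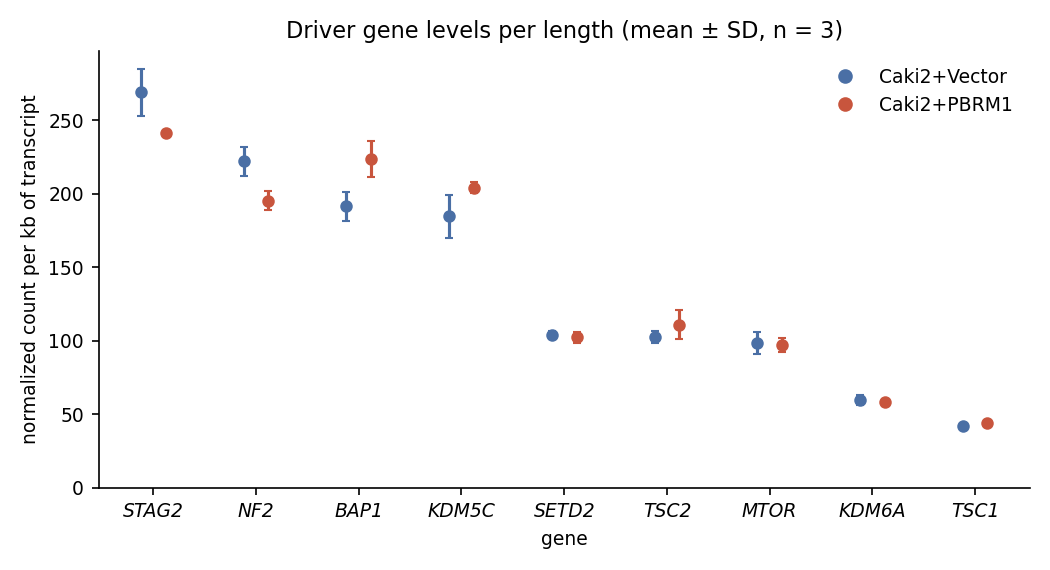
Level of each gene in normalized counts per kilobase of canonical transcript (y axis, from 0), by gene (x axis), mean ± SD (n = 3); blue, Caki2+Vector; red, Caki2+PBRM1. STAG2, NF2, BAP1 and KDM5C lie above 180, and NF2 is above BAP1 and KDM5C in Caki2+Vector and below both in Caki2+PBRM1.

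For the 4 called genes, the genes with the most similar pattern over the 6 samples were sought among 9679 genes by Pearson's r, as a description. For BAP1 these were CEBPZ (r = 0.998) and ZDHHC5 (0.995), for KDM5C CTDSP1 (0.996) and FBXW5 (0.990), for STAG2 KIFAP3 (0.998) and ZNF195 (0.996), and for NF2 ZNF468 (0.995) and TMEM135 (0.993). Each r rests on 6 points that share the difference between the groups, and on a search over all of those genes.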

How the data were processed

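RNA-Seq of 3 Caki2+Vector and 3 Caki2+PBRM1 samples was used, with groups and replicate letters from the labels. According to the study's methods and the submitters' processing notes, reads were trimmed, aligned to hg19 with STAR and counted on 25369 genes with htseq-count. The deposited signal is the read count divided by a size factor per sample (0.834 to 1.19) by the authors, with no division by length. Whole reads were recovered for 100% of values (tolerance 0.01 reads). The 13303 genes that reached 10 normalized counts in 3 or more samples were compared on log2(normalized count + 1), so fold changes of low genes are understated, by limma 3.58.1 in R 4.3.3 (trend, robust) with Benjamini-Hochberg adjustment over all of them and 0.05 as threshold. p-values measure the spread between these samples, 3 replicates of each line, and not between independently made lines. Other differences between the lines cannot be told apart from an effect of PBRM1. Alternatives were edgeR 4.0.16 (4004 genes called, against 3886), DESeq2 1.42.0 and voom on the recovered reads, TMM scaling, other filters and pseudocounts, a replicate block, length and GC curves, and leaving out each sample. The scripts were tested on simulated data. Coordinates, exons and lengths are from GENCODE on GRCh37, the sequence of hg19. The text names the 9 genes, PBRM1, VHL, fixed paralogues and partners, and up to 4 called genes per list with the largest change; further list genes (the renal markers, KMT2D, PAGR1, KDM1A, the 5 lower TSC-RHEB genes, SMC1A, RAD21, the other Hippo genes, CELSR3, PFKFB4) were added after their values were seen. The members and lists were chosen with earlier results of these data known.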

Additional observations from a re-analysis of the deposited data

How the results depend on the processing

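NF2 kept its direction and call in all 19 alternative settings, BAP1 and STAG2 in 18, KDM5C in 9. The cause of these differences was not tested. Several of the 19, such as TMM scaling, other filters and other pseudocounts, nearly repeat the main fit on the same samples. These counts therefore overstate the number of separate checks. With 1 sample left out at a time, the 9 genes gave 2 to 4 calls, 0 to 2 of them up and 1 to 2 down. All genes gave 2856 to 4170 calls (21.5% to 31.3% of those tested), of which 1207 to 1918 were down. The lists gave 1 to 4 (BAP1 partners), 1 to 6 (H3K4 and H3K27 demethylases and COMPASS), 1 to 3 (mTOR complexes), 5 to 8 (TSC-RHEB) and 1 to 4 (cohesin). The sign turned in such fits for SETD2 (-0.0446 to 0.007, positive without Caki2+PBRM1 replicate A), KDM6A (-0.0735 to 0.0101, positive without Caki2+Vector replicate A) and MTOR (-0.0778 to 0.0258, positive in 3 of 6). DESeq2 called 2553 genes, 19.2% of those tested, 1057 of them down. It called 1 of the 9 up, 1 BAP1 partner, 2 demethylase and COMPASS genes, 4 TSC-RHEB genes and 2 cohesin genes. After the planned length and GC curves 37.9% of all genes passed, against 29.2% in the main fit. There, 1 of the 9 was up and 4 down, and 2633 genes were down in all. In addition, 4 demethylase and COMPASS genes and 29 genes between SETD2 and PBRM1 passed, and TSC1 turned to -0.0535. With the replicate block added to these curves the share was 38.7% and the other numbers were 1, 4, 2691, 4, 30 and -0.0535. The outlier-resistant curves, added after seeing the data, called 35.6% of all genes (36.4% with the block). They left 1 of the 9 up, with and without the block, 4 demethylase and COMPASS genes, and 25 genes of the 3p stretch (27 with the block).

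The replicate letters did not pair the samples: same-letter samples correlated across genes at 0.01, -0.01 and 0.01 in their deviations from the group means. A fit with the replicate block called 4107 genes, 30.9% of those tested, and the same number, 4, of the 9. Each gene had at least 289 reads in a sample, and the standard errors of the 9 genes were 0.046 to 0.071 on the log2 scale; TSC2, at 0.11 with an SE of 0.061, did not pass.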
